A study of Mus musculus with 4 samples.

Results

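MicroRNA (miRNA) genes were taken from a table of capped RNA 5′ ends in mouse facial skin, as every entry whose gene symbol is Mir followed by a digit and does not end in hg. The rule found 353 of 69391 entries. They carry 154 of the 17819 gene symbols and place 341 of the 67319 distinct clusters of tag starts. One symbol, Mir1949, stands under 2 identifiers, so the entries hold 155 gene identifiers.

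The table comes from cap analysis of gene expression (CAGE), which sequences a short tag from the capped end of each RNA, so that a level counts starts and does not depend on transcript length. Its 4 libraries form 1 group: lesional facial skin of C57BL/6 mice of genotype Nectin-cre(+);Ikk2FL/FL;Postn-/-, taken at 28 days, in which floxed Ikk2 (a kinase that activates NF-kappaB) is the target of the Cre and the periostin gene Postn is deleted. The mice are a model of facial dermatitis (FADS). The labels spell the Cre driver as Nectin-cre and do not say in which cells it acts; every library shares the genotype, and no other genotype stands beside it. The sample codes of libraries 1 and 2 share their first part, as do those of libraries 3 and 4, but the labels do not explain the codes or state whether the 4 skins came from separate animals. The test of spread treats the libraries as independent, which gives too small a p where a pair with a common code is from 1 animal, and any p-value below speaks of the spread over these libraries alone, which may be technical.

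A miRNA is cut from a longer RNA. RNA polymerase II makes a capped primary transcript, the nuclease Drosha with its partner Dgcr8 cuts out a hairpin, Dicer1 trims the hairpin to a short duplex, and an Argonaute protein loads one strand, whose seed near its 5′ end pairs with target mRNAs. Many hairpins lie in an intron or exon of another gene and share its promoter, and a minority of introns of hairpin size, called mirtrons, become hairpins by splicing alone. CAGE therefore reads where the precursor starts and not how much mature miRNA is present. In bulk skin, fewer cells of a type and less RNA per cell cannot be told apart.

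The mature sequences of the miRNAs that the results turn on follow, in RNA letters with the seed (bases 2 to 8) in capitals. They come from RefSeq on build GRCm38.p6, which held a mature sequence for 142 of the 154 genes and a hairpin for 134. They are shown because these are the miRNAs known from epithelium and mesenchyme of skin that the table lists, with some others that share a seed or have a cluster of their own.
miR-203-3p: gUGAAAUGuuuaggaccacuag
miR-205-5p: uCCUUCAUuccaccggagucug
miR-200c-3p: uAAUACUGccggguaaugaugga
miR-141-3p: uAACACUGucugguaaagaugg
miR-31-5p: aGGCAAGAugcuggcauagcug
miR-184-3p: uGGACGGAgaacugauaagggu
miR-210-3p: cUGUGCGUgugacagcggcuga
miR-22-3p: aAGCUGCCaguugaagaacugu
miR-125b-5p: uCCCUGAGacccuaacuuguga
miR-199a-3p: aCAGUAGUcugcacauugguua
miR-199b-3p: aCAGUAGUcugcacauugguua
miR-148a-3p: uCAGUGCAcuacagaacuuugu
miR-152-3p: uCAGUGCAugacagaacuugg
miR-193a-3p: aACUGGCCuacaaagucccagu

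Among the detected genes 4 seeds were carried by more than 1 gene. Mir199a-2 and Mir199b share CAGUAGU, and Mir148a and Mir152 share CAGUGCA. Mir2861 and Mir3091 share GGGCCUG, and Mir6940 and Mir7648 share GGGCUGG. The seeds of miR-200c-3p and miR-141-3p are distinct (AAUACUG and AACACUG), although the hairpins are neighbours on chromosome 6.

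The miRNA entries summed to 6794, 6481, 7512 and 6934 CPM (tags relative to a fixed library total) in libraries 1 to 4, with each cluster taken once (6930 ± 432, SD, n = 4). That is 0.725%, 0.690%, 0.803% and 0.741% of the tags in distinct clusters. A gene had a median of 4.05 CPM, against 17.0 CPM over all genes of the table. At least 3 tags in every library, 0.159 to 0.170 CPM, were found for 118 of the 154 genes. The other 36 fell short in at least 1 library, and 3 of them, Mir680-3, Mir6952 and Mir7019, had no tag at all. Means of 100 CPM or more were reached by 11 genes, 10 to 100 CPM by 49, 1 to 10 CPM by 40, 0.1 to 1 CPM by 33, and less by 21.

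Most of this level stood under another gene as well. Of the 341 clusters, 280 (82.1%) carried the same cluster value under a gene outside the miRNA entries, against 1364 of 46652 other named clusters (2.92%) that were listed under more than 1 gene. The shared clusters summed to 5046, 4830, 5072 and 5149 CPM (5024 ± 137, SD, n = 4). The other 61 clusters summed to 1747, 1651, 2440 and 1784 CPM (1906 ± 361), nearly all of it Mir6236. Without Mir6236 they came to 60.8, 58.8, 69.5 and 61.1 CPM (62.6 ± 4.76), with little difference between libraries.

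By gene, 110 had all their clusters shared, 4 had some and 40 had none. A protein-coding gene was among the other genes for 255 of the shared clusters, and a small nucleolar or Cajal body RNA for 20. In 4 clusters the only other gene was itself annotated as a miRNA under a name that the rule does not take, such as Mirlet7f-2 beside Mir98. The hairpin lay over an exon of a gene listed with it for 60 genes, in an intron for 39, and in neither for 55. The other listed genes number 129, and 92 of them have at least 50% of their own level in clusters that also stand under a miRNA. Glul, Glce, H19, Nrp1, Terf2 and Rab40b have 100% there, whereas Spaca6 has 1.16%, Fxyd5 0.537% and Pde4d 7.15%.

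The listing followed position. Every one of the 353 entries lies on the strand of its hairpin and within 1000 bases of the hairpin's 5′ end, at most 999 bases away, in the GENCODE M21 annotation on build GRCm38. Of 351 pairs of a cluster and an annotated miRNA gene inside that window, 350 (99.7%) are in the table. The annotation holds 1163 genes named Mir and a digit. Of the 352 pairs of a gene and a cluster, 204 lay upstream of the hairpin, 98 downstream, 31 inside it or over its end, and 19 over its start. Clusters within 50 bases of a hairpin numbered 75, and 50 overlapped one.

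**Figure D1:**
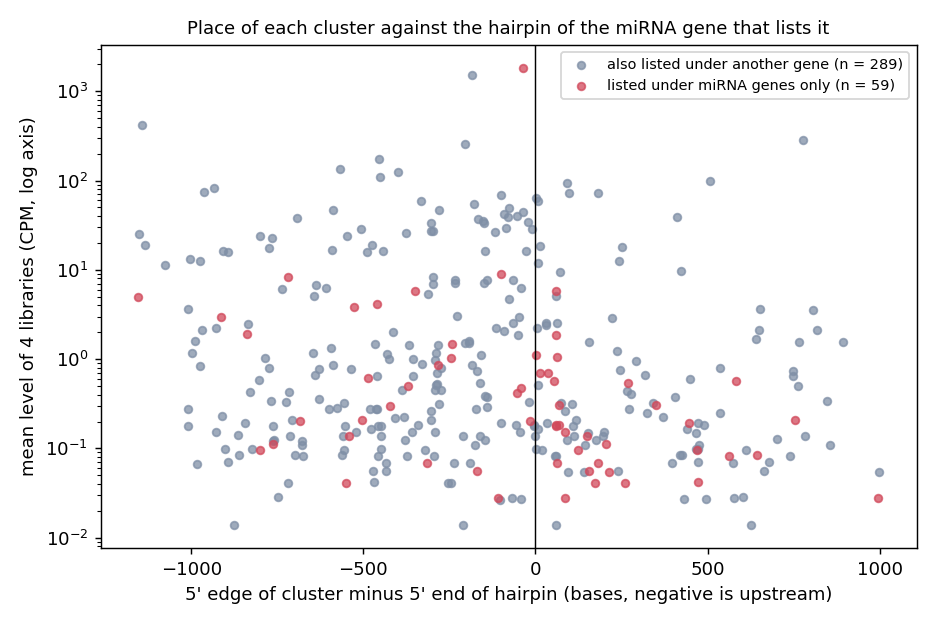
Place of each cluster against the hairpin of the miRNA gene that lists it. The x axis is the distance in bases from the 5′ end of the hairpin to the 5′ edge of the cluster (negative is upstream) and the y axis the mean level of the 4 libraries in CPM on a log axis; clusters without a tag have no point. Points spread over the whole window, and the red points (listed under miRNA genes only) lie mostly under 10 CPM, with Mir6236 near the top.

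The miRNA clusters were narrower than other named clusters and wider than clusters with no gene name. Their median width was 9 bases (interquartile range 3 to 63, longest 222), against 20 bases for 46652 other named clusters and 5 bases for 20326 clusters with no gene name. Shared clusters had a median of 10 bases and clusters of the miRNA genes alone 5 bases. A width of 10 bases or less was found in 180 miRNA clusters (52.8%), against 44.1% of other named clusters and 64.9% of clusters with no name. A width of 100 bases or more was found in 62 (18.2%), against 23.9%. Among clusters of at least 1 CPM the medians were 88 and 101 bases, and weighted by tags they were 71 and 136 bases. The 71 bases are the width of the Mir6236 cluster; the shared miRNA clusters had a tag-weighted median of 107 bases. Narrow clusters are thus mostly weak ones.

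An annotated transcript start lay within 50 bases of 133 miRNA clusters (39.0%), against 54.2% of other named clusters. At no such start, but within 5 bases of the first base of an internal exon, lay 37 miRNA clusters (10.9%). The share was 3.80% of other named clusters and 14.8% of clusters with no name. Clusters at annotated starts were counted first, so fewer of the other named clusters could fall in this class. None of the 61 clusters listed under miRNA genes alone lay at an annotated start of another transcript, and 13 (21.3%) lay at an internal exon start. Their lack of annotated starts follows largely from how they were picked, since clusters at such starts are nearly all listed under a gene. Only 36 clusters with no name (0.177%) lay at one, against 25408 named clusters.

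**Figure D2:**
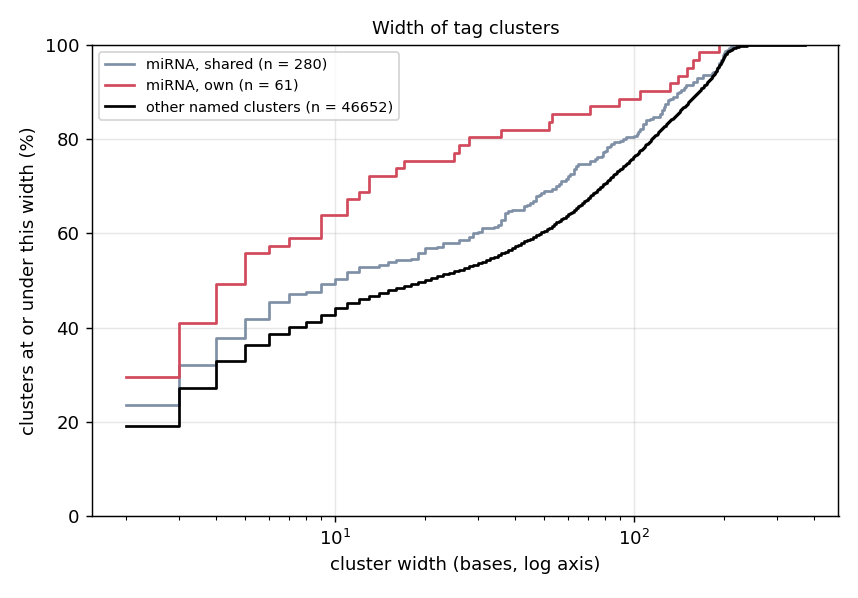
Cumulative share of clusters at or under each width, in bases on a log axis, for miRNA clusters shared with another gene, miRNA clusters of their own and all other named clusters. The median widths are 10, 5 and 20 bases, and the curve of the miRNA genes' own clusters lies above the other named clusters over most of the range.

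The miRNA genes with clusters of their own come first. Mir6236 was the highest of all, at 1687, 1592, 2371 and 1723 CPM in libraries 1 to 4 (1843 ± 356, SD, n = 4). Library 3 stood above the other libraries, which lay close together. One cluster of 71 bases at chr9:110281250-110281320 on the plus strand held 99.97% of the level and ran over the start of the hairpin (110281287 to 110281409). As background, this hairpin resembles a stretch of the large ribosomal RNA, of which the genome holds many copies. No transcript of another gene in GENCODE M21 held a 40-base stretch of the hairpin, but ribosomal RNA repeats were not among the sequences searched. The level of Mir6236 is uncertain to that extent, and the share of ribosomal RNA in it was not tested.

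Mir203 encodes the keratinocyte miRNA that represses the basal-layer factor Trp63 as epidermis differentiates. Its level was 10.1, 8.61, 9.93 and 7.08 CPM (8.92 ± 1.39, SD, n = 4), next after Mir6236 among genes with no shared cluster. Nearly all of it came from 1 cluster of 7 bases at chr12:112130780-112130786 on the plus strand, which ended 94 bases before the hairpin. No other gene was listed for it. Library 4 was lowest and library 1 highest. The range of this cluster between libraries, after scaling, was 0.506 on the log2 scale, against a median of 0.345 for miRNA clusters.

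Mir193a had 7.81, 6.85, 9.70 and 8.58 CPM (8.24 ± 1.20). Its cluster was broad, at 140 bases, and ended 579 bases upstream of the hairpin. Mir148a had 3.91, 6.8, 3.86 and 5.18 CPM (4.94 ± 1.39), from a 192-base cluster that ended 964 bases upstream, close to the limit of the window. Library 2 was the highest for Mir148a and the lowest for Mir193a. Mir148a and Mir193a are named here after their values were seen, as are the other genes of this group outside the lists.

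Mir210, the miRNA that hypoxia induces, had 1.32, 1.17, 2.33 and 1.06 CPM (1.47 ± 0.582, SD, n = 4). Library 3 was the highest, and the other libraries lay close together. The cluster was 25 bases wide and ended 219 bases upstream of the hairpin. Mir184, a miRNA of cornea and epidermis, was near the floor, with 2, 9, 2 and 9 tags. Libraries 2 and 4 were above libraries 1 and 3, at 0.478 and 0.502 CPM against 0.110 and 0.113 CPM.

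Libraries 2 and 4 were also those with RNA of facial glands: the 4 gland markers Mucl2, Obp1a, Bpifa2 and Smr3a summed to 7.48, 31728, 0.113 and 4701 CPM in libraries 1 to 4, and all but Bpifa2 were at 0 in library 3. In library 4 the sum was carried by Mucl2 and Obp1a, whereas Bpifa2 and Smr3a were at 4.46 and 0.557 CPM there, close to their 4.18 and 0.825 CPM in library 1, and at 16004 and 3484 CPM in library 2. The part of gland tissue in the Mir184 level was not tested.

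Mir219c and Mir219a-1 lie on opposite strands beside Ring1, a Polycomb ubiquitin ligase. Mir219c had a 150-base cluster of its own, at 5.61, 5.10, 6.58 and 5.85 CPM (5.79 ± 0.615). Mir219a-1, on the strand of Ring1, shared its clusters with Ring1 and Gm26940 and had 41.4, 37.1, 39.3 and 39.4 CPM (39.3 ± 1.75). The levels thus come from clusters of opposite direction. The main Mir219a-1 cluster, at chr17:34024636-34024681 on the minus strand, lies past the hairpin, whose mature sequences span 34025010 to 34025072. An RNA that begins at that cluster does not contain the hairpin.

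**Figure D3:**
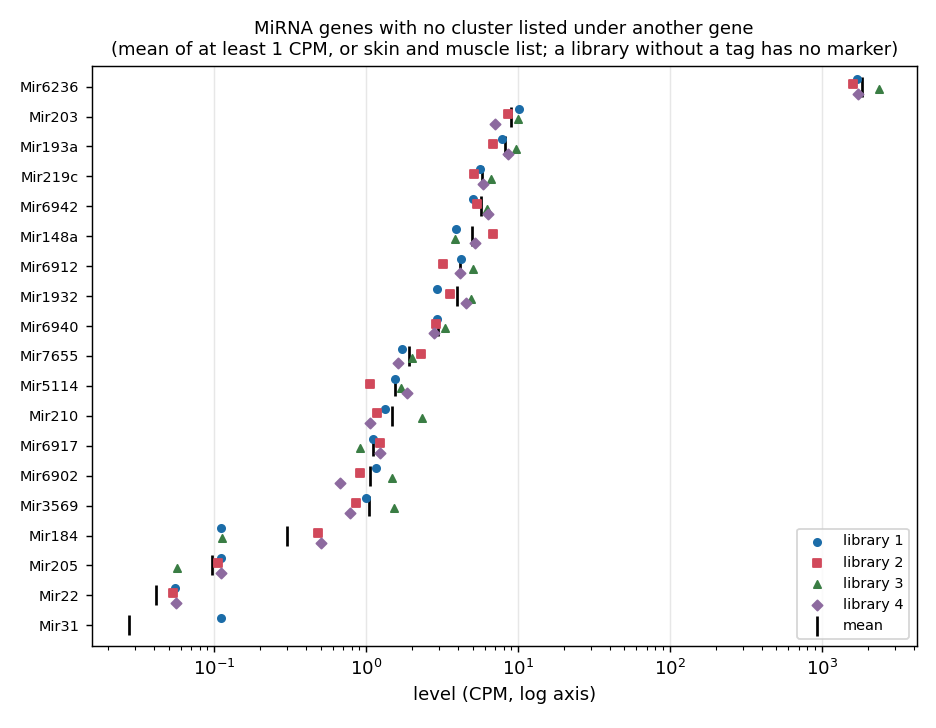
Levels in each library, in CPM on a log axis, of miRNA genes with no cluster listed under another gene that averaged at least 1 CPM or stand in the skin and muscle list. Black bars are means of 4 libraries, and a library without a tag has no marker. Mir6236, at a mean of 1843 CPM, lies far above the next gene, Mir203, at 8.92 CPM, and Mir184, Mir205, Mir22 and Mir31 lie under 1 CPM.

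For many of these genes a higher level stands elsewhere in the table, under the gene that contains the hairpin. Of the 40 genes with no shared cluster, 24 lie inside an annotated gene of the table on the same strand, and for 22 of them that gene's level was at least 10 times theirs. The other 16 lie in no annotated gene. The gap in level for the 22 genes follows in part from how the 40 were picked. A cluster listed under the surrounding gene within 1000 bases of the hairpin's 5′ end would be shared, which takes the miRNA gene out of the 40. Some genes with shared clusters also lie far below the surrounding gene, such as Mir98 and Mir125a, described below.

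Mir205, a miRNA of stratified epithelium, is the clearest case. Its own entry had 2, 2, 1 and 2 tags, under the detection floor in every library. Mir205hg, the noncoding RNA whose exon holds the hairpin, had 161, 126, 212 and 150 CPM (162 ± 36.1, SD, n = 4). The main cluster of Mir205hg, with 99.8% of its level, ended 2498 bases before the hairpin, outside the window in which clusters are listed under a miRNA gene.

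Mir22 showed the same layout, with 1, 1, 0 and 1 tags under its own name. Mir22hg had 44.1, 45.8, 52.5 and 44.4 CPM (46.7 ± 3.91), from a cluster that ended 2014 bases before the hairpin. That cluster is also the main one of Tlcd2, a protein-coding gene that contains the hairpin too and had 55.7 ± 6.07 CPM. Library 3 was the highest for Mir22hg and for Mir205hg. Mir31, a miRNA of keratinocyte growth and wound repair, had 2 tags in library 1 and none in the others. The noncoding gene Gm49890, which contains its hairpin, had 19.9, 17.7, 9.70 and 11.2 CPM (14.6 ± 4.94), from a cluster 27673 bases upstream. Libraries 1 and 2 were above libraries 3 and 4 there.

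Mir32, inside the membrane protein gene Tmem245, averaged 0.0823 CPM against 23.1 ± 1.98 CPM for Tmem245, whose main cluster lay 52085 bases upstream. Mir98 shared a cluster with Mirlet7f-2 at 0.277 CPM, while Huwe1, the ubiquitin ligase gene around both hairpins, had 166 ± 9.63 CPM from a start 109766 bases upstream. Mir125a averaged 0.236 CPM, inside Spaca6 at 20.4 ± 4.17 CPM. In each of these genes the entry under the miRNA name and the level of the surrounding gene were far apart, and the main start of that gene lay more than 1000 bases away.

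Other entries share clusters with the gene around them. Mir200c and Mir141, which keep epithelium epithelial by repressing Zeb1 and Zeb2, shared one cluster of 90 bases with each other and with the noncoding genes Gm15884 and Gm29008. With another, weak cluster their level was 15.95, 16.7, 17.5 and 14.2 CPM (16.1 ± 1.42, SD, n = 4). The cluster at chr6:124718790-124718879 on the minus strand ended 400 bases before the hairpin of Mir200c and 805 bases before that of Mir141. The values of the pair are therefore a single measurement.

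Mir125b-1, a miRNA that holds back differentiation in skin stem cells, had 6.00, 5.84, 10.3 and 8.75 CPM (7.73 ± 2.19), all of it shared with Mir100hg and Gm28119. This was 52.4% of the level of Mir100hg. Mir199a-2 lies in Dnm3os, a noncoding RNA of mesenchyme, and had 1.27, 1.22, 1.87 and 2.06 CPM (1.61 ± 0.425), the same as Dnm3os. In both, libraries 3 and 4 were above libraries 1 and 2, with no overlap. The sum of keratin and collagen markers of skin was also higher in those libraries: the 7 markers Krt5, Krt14, Krt1, Krt10, Col1a1, Col1a2 and Col3a1, none at 0, came to 10036, 8596, 14528 and 13469 CPM. Krt5 and Krt14 did not follow the sum, with 470 and 649 CPM in library 4 against 503 and 712 CPM in library 1. The endothelial markers Pecam1 and Cdh5 summed to 28.9, 27.5, 40.8 and 41.8 CPM. The part of these markers in the miRNA levels was not tested. The split of libraries 3 and 4 from libraries 1 and 2 was read in CPM without scaling, here and for other genes. Over all clusters of at least 1 CPM, library 3 was the highest for 35.3% and library 4 for 32.3%. How many clusters show that split was not counted.

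Mir152, in the coatomer gene Copz2, had 21.4, 25.4, 24.8 and 25.9 CPM (24.4 ± 2.04), which is the whole level of Copz2. Its seed is that of Mir148a, whose level of 4.94 ± 1.39 CPM was lower in every library. Mir199b carries the mature 3′ sequence of Mir199a-2 but was near the floor, at 0.387 ± 0.183 CPM. Mir423, in the splicing-related gene Nsrp1, had 33.2 ± 1.13 CPM, and Mir574, in Fam114a1, 8.37 ± 1.80 CPM. The skin and muscle list held 44 miRNAs, of which the 10 named so far that belong to it (Mir203, Mir205, Mir200c, Mir141, Mir31, Mir184, Mir210, Mir22, Mir125b-1 and Mir199a-2) are in the table; the rest were not analysed here.

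The 25 genes with the highest levels are led by Mir6236, and the other 24 share every cluster with another gene. The miRNA level is not always that of the other gene: Mir6975 holds 38.7% of the level of Ddx39b, and Mir1893 84.7% of that of Epc1. Mir682 had 1626, 1541, 1373 and 1565 CPM (1526 ± 108, SD, n = 4), all from a 26-base cluster at the start of the processed pseudogene Gm4149. Stretches of 40 bases of its hairpin occur in 12 other genes, among them Gm4149 itself and Rpl37a, a ribosomal protein gene. The cluster ended 159 bases before the hairpin, and its own sequence was not searched for copies. Whether these tags have a single place in the genome was therefore not tested. Mir6935 had 383, 416, 467 and 428 CPM (423 ± 34.6) and stands under Actg1, cytoplasmic gamma actin, with 99.9% of the level of Actg1.

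Mir688 shares its clusters with Atp5g2, a subunit of the ATP synthase ring, and averaged 283 ± 19.8 CPM. Mir7009 lies in an intron of Anxa5, an annexin that binds phosphatidylserine, and had 224, 202, 329 and 284 CPM (260 ± 57.8). Libraries 3 and 4 were above libraries 1 and 2 for Mir7009. Mir207, in the co-chaperone gene Dnaja1, had 172, 169, 172 and 195 CPM (177 ± 11.8), with library 4 apart from the other libraries.

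Between 100 and 140 CPM stood Mir1938 with Ifrd1, a transcriptional coregulator (136 ± 8.62 CPM), Mir7654 with Arglu1, a splicing coactivator (127 ± 4.37 CPM), and Mir7036b with Add1, the cytoskeletal protein adducin (112 ± 7.15 CPM). Mir1945 stood with Gspt1, a translation termination factor (109 ± 8.38 CPM), and Mir8105 with Smarcc2, a subunit of the BAF chromatin remodeller (102 ± 4.49 CPM). Mir1945 and Mir8105 lie upstream of, and outside, the gene that shares their clusters; the cluster starts 91 bases past the 5′ end of the Mir1945 hairpin and 508 bases past that of Mir8105. The strongest cluster also lay past the end of the hairpin for Mir688, by 702 bases, and for Mir2861 and Mir3960, described next, by 16 and 109 bases. An RNA that begins at these clusters does not contain the hairpin that they are listed under.

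Mir7045, in Chd4, the ATPase of the NuRD complex, averaged 92.9 ± 5.25 CPM over 14 clusters. Mir2861 and Mir3960, neighbours in Cdk9, the kinase that releases paused polymerase, had identical values of 90.5, 77.7, 80.8 and 76.0 CPM (81.3 ± 6.46), since all 6 clusters are the same. Mir5132 and Mir718 likewise had the same 2 clusters under Irak1, a kinase of interleukin-1 and Toll-like receptor signalling, at 52.1, 61.8, 60.3 and 64.6 CPM (59.7 ± 5.33). Library 1 was the highest for the Cdk9 pair and the lowest for the Irak1 pair.

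Among the remaining genes of the 25, Mir6975 stood with the RNA export helicase gene Ddx39b at 75.1 ± 4.39 CPM, Mir8101 with the histone deacetylase gene Hdac5 at 68.5 ± 6.00 CPM, and Mir3091 with the ribosomal protein gene Rps21 at 57.6 ± 3.83 CPM. Mir1894 stood with Ppp1r10, a regulator of nuclear phosphatase PP1, at 54.6 ± 3.31 CPM, and Mir7672 with Pde12, a mitochondrial phosphodiesterase, at 50.6 ± 1.68 CPM. Mir1893 stood with Epc1, a scaffold of the NuA4 complex, at 49.2 ± 3.87 CPM, and Mir6516 with the noncoding RNA Snhg20 and Gm26083 at 46.9 ± 5.49 CPM.

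Mir5136 shared its single cluster with a small nucleolar RNA, Snora57, and the cluster began inside the hairpin. The level was 65.8, 62.3, 64.1 and 61.3 CPM (63.4 ± 1.98, SD, n = 4), with the libraries close together. The cluster of 29 bases covers bases 2 to 30 of the hairpin, shown here in RNA letters from RefSeq with those bases in capitals (build GRCm38.p6, chr19:8888699-8888774, minus strand).
Mir5136: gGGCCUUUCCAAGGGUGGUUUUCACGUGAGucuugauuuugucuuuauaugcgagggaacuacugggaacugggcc

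**Figure D4:**
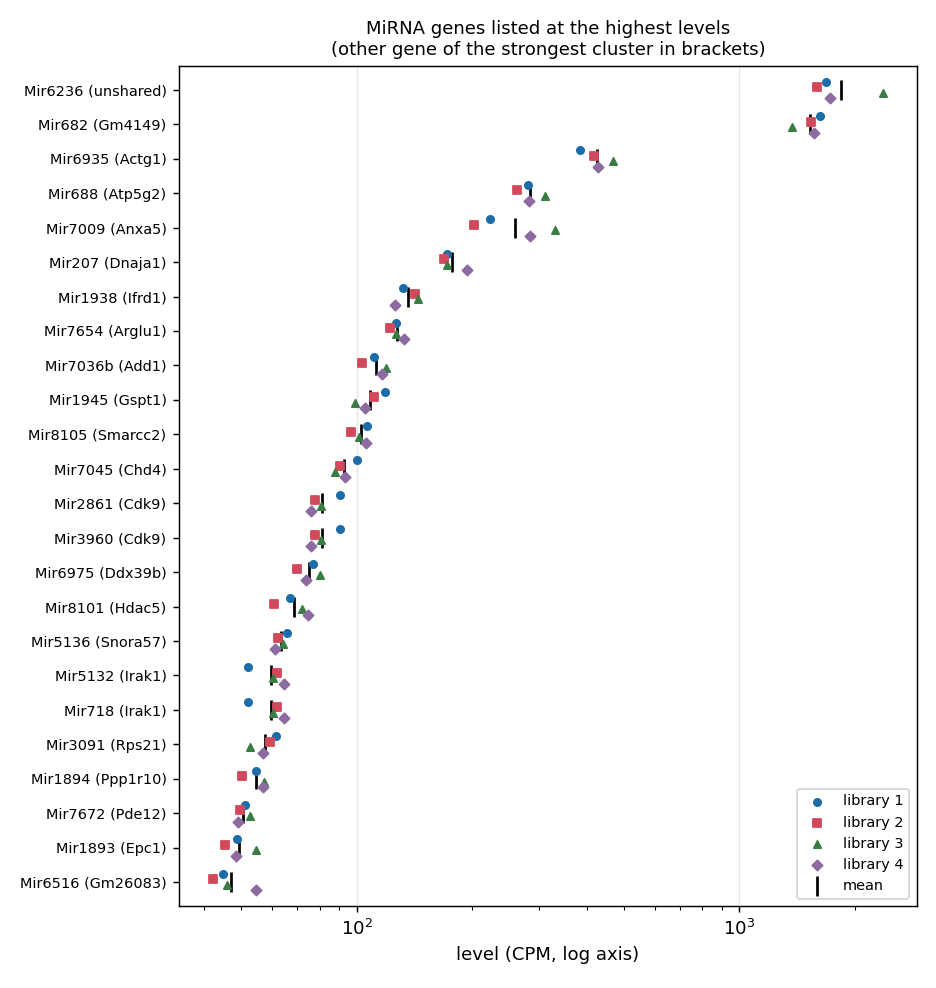
Levels in each library, in CPM on a log axis, of 24 miRNA genes from among the 25 with the highest means; the gene listed for the same strongest cluster stands in brackets, and black bars are means of 4 libraries. Only Mir6236 has no such gene, and Mir2861 and Mir3960, like Mir5132 and Mir718, lie at the same values because they share their clusters.

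A cluster ran over the start of the hairpin with at least 1 CPM for 17 genes. Besides Mir6236 they include Mir8101 (Hdac5) and Mir7672 (Pde12), named above, and Mir8098 (Wdfy2) at 44.1 ± 3.49 CPM, Mir8112 (Krcc1) at 42.5 ± 3.35 CPM, Mir7238 (Ankrd10) at 41.8 ± 5.68 CPM and Mir8114 at 16.1 ± 2.60 CPM. Mir8114 sits at the start of Glul, glutamine synthetase, and holds its whole level. Mir1981 is also among the 17, with a cluster of 2.52 CPM over its hairpin start, but the main start of the gene around it, Mtarc2, lies 23241 bases upstream.

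The opposite end gave another pattern. In 15 pairs the cluster began within 5 bases of the last base of the hairpin, and in 13 of them, one for each of 13 genes, the first base of an internal exon was within 5 bases too. Of these clusters, 9 stand under the miRNA gene alone. Their means ran from 0 to 9.35 CPM. Sequences of 4 such hairpins, from RefSeq (GRCm38.p6), show the place of the cluster, with the hairpin bases under it in capitals: Mir6942 at chr13:21396578-21396638 on the minus strand, Mir6902 at chr1:93346092-93346155 on the plus strand, Mir6911 at chr10:80278164-80278232 on the plus strand and Mir6976 at chr17:46553827-46553889 on the minus strand.
Mir6942: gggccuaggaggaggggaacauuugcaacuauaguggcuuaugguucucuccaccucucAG
Mir6902: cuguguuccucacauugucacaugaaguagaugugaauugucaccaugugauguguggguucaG
Mir6911: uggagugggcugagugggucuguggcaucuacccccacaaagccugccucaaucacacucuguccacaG
Mir6976: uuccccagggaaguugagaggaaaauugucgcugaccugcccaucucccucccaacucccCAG
All 4 end in AG, the letters that end nearly every intron, and the clusters begin just before the exon that follows. Clusters at internal exon starts are not particular to miRNA genes. Away from annotated transcript starts, 1774 other named clusters and 3002 clusters with no name lay at one.

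Mir6942, inside the zinc finger gene Zkscan3, had 5.06, 5.31, 6.24 and 6.30 CPM (5.73 ± 0.634, SD, n = 4) from a 5-base cluster. Zkscan3 itself had 23.4 ± 2.66 CPM from a start 6019 bases upstream. Mir6902, inside Ppp1r7, a regulator of phosphatase PP1, had 1.05 ± 0.346 CPM, against 43.0 ± 1.09 CPM for Ppp1r7. The highest of these clusters, at 9.68, 8.71, 10.04 and 8.98 CPM (9.35 ± 0.615), stands under Mir7084 and under Elof1, a transcription elongation factor. In Zkscan3 and Ppp1r7 the cluster at the hairpin's end was lower in every library than the gene's own start.

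No miRNA cluster was called for a spread between the 4 libraries beyond that of clusters of its level. The test was limma's one-sided F test on log2(CPM + 1) with Benjamini-Hochberg adjustment over 25530 clusters of at least 1 CPM. It called 150 of all clusters (0.588%) and 0 of the 126 miRNA clusters tested, whose lowest adjusted p was 0.482. At an unadjusted p under 0.05 there were 4 miRNA clusters (3.17%), against 6.7% of all clusters. edgeR on the recovered tags also called 0 miRNA clusters, with 4 at an unadjusted p under 0.05, and 0.642% of all clusters. With no filter on low values, limma called 2 miRNA clusters, those of Mir675 (adjusted p = 0.0185) and Mir6236 (adjusted p = 0.0291). The range between libraries had a median of 0.345 on the log2 scale for miRNA clusters and 0.334 over all clusters, and the median coefficient of variation of genes at 1 CPM or more was 10.98% for miRNA genes and 10.2% over all genes.

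The 4 clusters past the unadjusted level were those of Mir675, Mir3100, Mir7067 and Mir7653. Mir675 lies in the first exon of H19, an imprinted noncoding RNA of fetal tissue and muscle, and had 11.7, 7.38, 14.6 and 19.6 CPM (13.3 ± 5.15, SD, n = 4; limma adjusted p = 0.482). Igf2, the imprinted neighbour of H19, had 7.54, 8.34, 13.5 and 17.11 CPM. Skeletal muscle markers (4 of 4 in the table, Acta1, Ckm, Myh4 and Mylpf, none at 0) summed to 1946, 1439, 2267 and 3609 CPM, and were lowest in library 2 and highest in library 4, as Mir675 was. Their part in the Mir675 level was not tested.

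Mir3100 shares its cluster with Dmpk, the myotonic dystrophy kinase gene, and had 20.2, 19.8, 13.3 and 13.5 CPM (limma adjusted p = 0.604). Mir7067, with Snora68, had 4.24, 3.08, 9.08 and 5.80 CPM over 3 clusters (limma adjusted p = 0.608 for the strongest). Mir7653, with Tlcd1, had 52.0, 46.1, 41.7 and 41.5 CPM over 9 clusters (limma adjusted p = 0.709). Libraries 1 and 2 were above libraries 3 and 4 for Mir3100 and Mir7653, and library 3 was the highest for Mir7067.

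Library 2 was the highest library for 8 of the 126 miRNA clusters (6.35%), against 8.50% of all clusters. Library 1 was the highest for 40 miRNA clusters (31.7%), against 23.8% of all clusters. Library 3 was the highest for 40 (31.7%), against 35.3%, and library 4 for 38 (30.2%), against 32.3%. These shares were read from CPM without the scaling factors and were not tested. Library 2 is the one with most gland RNA, and its scaling factor was the lowest, 0.925.

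The genes that make and use miRNAs were read from 28 of 30 list members in the table (Lin28a and Lin28b were not analysed here), and all 28 were well above the detection floor. In the nucleus, Drosha had 47.6, 44.5, 43.9 and 47.0 CPM (45.8 ± 1.83, SD, n = 4) and its partner Dgcr8 had 25.1, 21.7, 29.5 and 26.5 CPM (25.7 ± 3.22). The helicases Ddx5 and Ddx17, which assist Drosha, had 312 ± 16.5 and 199 ± 11.4 CPM, and the RNA-binding protein Hnrnpa2b1 was the highest at 783 ± 49.3 CPM. The export receptor Xpo5 had 34.9, 35.2, 32.8 and 38.0 CPM (35.2 ± 2.13), and Ran, the GTPase it works with, 254 ± 2.82 CPM.

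In the cytoplasm, Dicer1 had 64.2, 54.7, 58.0 and 60.5 CPM (59.3 ± 4.02). Its partners Tarbp2 and Prkra had 32.1 ± 1.33 and 14.3 ± 2.21 CPM. Of the Argonautes, Ago2, the main target-cutting one in mammals, had 65.6 ± 3.88 CPM, Ago1 56.9 ± 2.29 CPM, Ago3 19.8 ± 2.11 CPM and Ago4 6.44 ± 0.903 CPM. Ago2 ranged from 61.5 to 69.4 CPM over the libraries and Ago1 from 54.0 to 59.3 CPM, with no overlap. Mov10, an Argonaute-bound helicase, was the lowest of the 28 at 4.73 ± 1.27 CPM. Of 54 clusters of these genes tested for spread, limma called 0, with 0 at an unadjusted p under 0.05, and edgeR also called 0.

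Some of these genes carry a miRNA themselves. Mir1306 lies in an exon of Dgcr8, and its entry had 0.223 ± 0.163 CPM in a 3-base cluster. Mir3064 lies in Ddx5, with 0.815 ± 0.188 CPM over 5 clusters, 5730 bases past the main start of Ddx5. Both entries were far below the level of the gene around them.

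**Figure D5:**
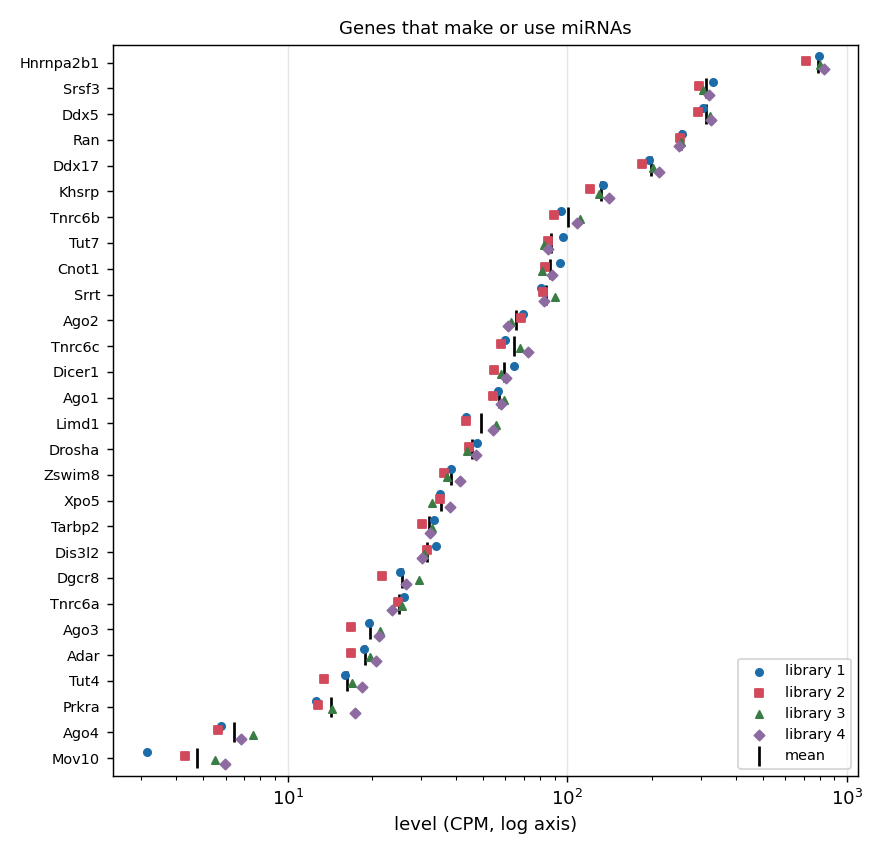
Levels in each library, in CPM on a log axis, of 28 genes that make or use miRNAs, ordered by mean; black bars are means of 4 libraries. The libraries are spread most for Mov10, from 3.14 to 5.96 CPM, and the order runs from Hnrnpa2b1 at 783 CPM to Mov10 at 4.73 CPM.

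A list of 53 genes known to host or precede miRNAs had 37 members in the table. Mir100hg had 12.0, 10.996, 19.2 and 16.8 CPM and Mir99ahg 12.4, 11.6, 15.1 and 13.3 CPM. Mir142hg and Mir155hg, precursors of leukocyte miRNAs, had 1.65, 1.49, 2.55 and 2.90 CPM and 1.60, 1.86, 0.908 and 0.836 CPM. Mir142hg is not on the list of 53 and was taken by its symbol. The leukocyte markers Ptprc, Cd68, Csf1r and Cd3e, all above 0 in every library, summed to 48.7, 45.2, 62.9 and 55.0 CPM. Libraries 3 and 4 were above libraries 1 and 2 for Mir142hg and for the markers, and below them for Mir155hg. Trpm1, the melanocyte gene that hosts Mir211, had 63.3, 52.9, 29.1 and 33.6 CPM, and the melanocyte markers Dct, Tyrp1 and Pmel summed to 280, 266, 197 and 209 CPM, higher in libraries 1 and 2 as well.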

How the data were processed

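Total RNA of 4 lesional skins was made into CAGE libraries with a commercial kit, per the labels' protocols. Per the submitters' processing notes, BWA and HISAT2 were used (versions not stated) with mm9, but the positions match GENCODE M21 on GRCm38, which is used here. The clustering step is not described in the labels. The deposited unit is CPM over all entries of the authors' table. All values were whole multiples of 1 tag (tolerance 0.02 tags), which gave totals of 18179860, 18823630, 17630119 and 17939565 tags; 1 tag is 0.0531 to 0.0567 CPM. The floor of 3 tags covers counting error only. The deposited start counts from 0, as read from clusters at exon starts, so 1 was added, and a width is the end minus the deposited start.

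Each cluster entered once, and a gene's level is the sum over its clusters. The test of spread used limma 3.58.1 on log2(CPM + 1) with TMM factors (0.993, 0.925, 1.05 and 1.04), a robust trended prior, a mean of at least 1 CPM and Benjamini-Hochberg adjustment at 0.05. edgeR 4.0.16 on the recovered tags was an alternative. The test was checked on simulated data with more prior degrees of freedom than the 4.52 of the main fit. Its power at the spread of these data was therefore not tested. With 1 group no test between groups was made, and genes were described by level, mean and SD. Named genes are the 25 highest (1 gene and 1 sequence are not reported here), any called by the test, and lists of skin and muscle miRNAs, pathway genes and host genes. The members and lists were chosen with earlier results of these data known.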

Additional observations from a re-analysis of the deposited data

Results flagged for a closer look

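Of 118 values tested for a library far from the other 3, 8 were past Dixon's critical value for 4 samples; chance gives about 1 in 20. The ratio in brackets is the gap to the nearest library over the whole range. Library 3 was high for Mir6236 (0.831) and therefore for the sum of clusters listed under miRNA genes alone (0.831), and for Gpc1, a proteoglycan gene that hosts a miRNA, at 151 CPM against 129 to 131 CPM in the others (0.893). Library 4 was high for Mir207 (0.871). Library 2 was low for Evl, an actin regulator that hosts a miRNA, at 36.5 CPM against 41.5 to 41.8 CPM in the others (0.946).

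The other values rest on 2 tags or fewer. Library 3 was low for Mir205 (0.907) and Mir22 (0.946), and library 1 was alone in having tags for Mir31 (1).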

How the results depend on the processing

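The count of clusters called for spread was 150; it was 1221 with no filter on low values, 24 at a mean of at least 5 CPM, and 32 to 190 when 1 library was left out (32 without library 4). No miRNA cluster was called by limma under any other scaling, pseudocount, filter or left-out library, or by edgeR, with 1 exception: with no filter, limma called 2, Mir675 with H19 (adjusted p = 0.0185) and Mir6236 (adjusted p = 0.0291). That fit tests 66269 clusters, and the cause was not tested. In the other settings printed the alternative itself counts fewer clusters or a wider window. With unshared clusters alone the summed level was 1906 CPM in place of 6930 CPM, the detected genes 25 in place of 118, and the median level of named genes 0 in place of 62.1 CPM. At a mean of at least 1 CPM, 111 of 126 clusters (88.1%) were shared, in place of 280 of 341 (82.1%). Counting overlap with another gene or a place within its transcript, 320 of 341 (93.8%) were shared. At a mean of at least 1 CPM the median width was 88 bases in place of 9 (71 weighted by tags). At that level 37 clusters in place of 75 lay within 50 bases of a hairpin. Over all levels 242 lay within 500 bases. The median pathway gene had 53.6 CPM, or 49.8 CPM from its most used cluster. Leaving out 1 library gave 6736 to 7080 CPM summed, 119 to 121 genes detected, 61.3 to 62.6 CPM for named genes and 52.5 to 55.0 CPM for pathway genes. Of single-gene values, 26 of 35 stayed within 1 SD under other settings. When a library was left out 252 of 252 did so, but this is no check. Leaving out 1 library cannot move a mean by 1 SD of the same values. Levels under about 0.17 CPM rest on 3 tags or fewer. No paired analysis was possible because the labels give 1 group, and their sample codes are not explained.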
